A study of Mus musculus with 12 samples.

Results

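A set of 9 genes of the NF-kB pathway was taken by name, and the rule took every probe set annotated to one of them: the subunit genes Nfkb1, Nfkb2 and Relb, the feedback inhibitors Nfkbia and Tnfaip3, and the inflammatory targets Icam1, Ccl2, Cxcl1 and Cxcl2. Of these 9 genes, 8 had probe sets, 16 of the 45101 on the array, and Nfkb1 was not analysed here because no probe set carries it as its 1 gene symbol in the annotation used, in which sets with several symbols or none are left unnamed. The arrays were Affymetrix Mouse Genome 430 2.0 chips hybridised with total RNA of C57BL6 mice, 3 arrays in each of 4 groups: Sgpp2 knockout (KO) on normal food, wild type (WT) on normal food, KO on high-fat food and WT on high-fat food. Sgpp2 encodes a phosphatase of the endoplasmic reticulum that acts on the signalling lipid sphingosine-1-phosphate. Neither the age and number of the mice nor the extent of the deletion, nor the time on the diet, is given in the sources used, and whether the arrays of a group came from separate animals was not stated, so that the p-values rest on a spread between arrays that may be technical. The sample labels name no tissue and the series title names pancreatic islets. Ins2, Iapp and Gcg had mean log2 values of 14.57, 14.96 and 14.40. Of the tested acinar markers Ctrb1 had the highest mean, 14.63, and Cpa1 had 13.97.

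NF-kB factors are dimers of related proteins that bind short DNA elements called kB sites. In resting cells they are held in the cytoplasm by inhibitors such as the product of Nfkbia. Cytokine or pattern-recognition receptors trigger the breakdown of that inhibitor (the canonical route), whereas a subset of receptors triggers the trimming of the Nfkb2 precursor, whose product pairs with the Relb protein (the non-canonical route). Many targets feed back: Nfkbia and Tnfaip3 are themselves induced and switch the pathway off, and Nfkb2 and Relb are target genes too. In islets the pathway is best known for the response of β-cells to inflammatory cytokines, in which chemokines such as those encoded by Ccl2, Cxcl1 and Cxcl2 are produced.

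The stretch before the transcription start was available from RefSeq (GRCm38.p6) for 6 of the genes, and for 4 of them it is shown so that the matches described next can be read in place. Each line runs 5′ to 3′ along the gene over the 250 bases before its start, and the capitals mark matches to the kB consensus on either strand, with overlapping matches joined.
Cxcl1: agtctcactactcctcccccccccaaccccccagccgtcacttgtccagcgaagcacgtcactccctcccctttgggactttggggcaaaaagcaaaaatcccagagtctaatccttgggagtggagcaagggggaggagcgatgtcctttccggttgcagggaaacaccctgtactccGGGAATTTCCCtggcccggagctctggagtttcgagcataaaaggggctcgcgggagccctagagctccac
Cxcl2: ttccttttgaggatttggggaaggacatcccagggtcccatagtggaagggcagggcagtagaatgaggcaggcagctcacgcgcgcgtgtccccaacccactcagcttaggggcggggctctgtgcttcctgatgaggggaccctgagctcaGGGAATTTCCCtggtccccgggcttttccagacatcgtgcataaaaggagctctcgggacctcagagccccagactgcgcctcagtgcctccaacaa
Nfkbia: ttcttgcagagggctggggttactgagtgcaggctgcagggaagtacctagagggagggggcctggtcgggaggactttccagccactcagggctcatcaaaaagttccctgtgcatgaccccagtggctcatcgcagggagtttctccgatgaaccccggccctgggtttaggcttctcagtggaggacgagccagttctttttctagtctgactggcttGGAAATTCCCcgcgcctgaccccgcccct
Nfkb2: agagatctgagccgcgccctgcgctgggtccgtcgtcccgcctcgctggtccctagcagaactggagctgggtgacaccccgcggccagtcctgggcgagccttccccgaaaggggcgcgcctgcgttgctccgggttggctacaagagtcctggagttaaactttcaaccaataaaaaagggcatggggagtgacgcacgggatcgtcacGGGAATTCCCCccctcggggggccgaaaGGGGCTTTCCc
The Cxcl1 stretch lies at chr5:90890995-90891244 on the plus strand, that of Cxcl2 at chr5:90903649-90903898 on the plus strand, that of Nfkbia at chr12:55492648-55492897 on the minus strand, and that of the first of 3 annotated Nfkb2 starts at chr19:46304487-46304736 on the plus strand. Cxcl1 and Cxcl2 are neighbours separated by 10777 bases, and both carry the run GGGAATTTCCC, which matches the consensus on both strands in overlapping positions.

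In Cxcl1 the 10 letters GGGAATTTCC stood at −71 to −62 and in Cxcl2 at −97 to −88, counted from the transcription start, and in Nfkbia their reverse complement GGAAATTCCC stood at −29 to −20. Searched on both strands, GGGAATTTCC was found in 29 of all 32851 windows of 300 bases (250 before and 50 after a start), or 0.0883%, and 3 of these genes held it. These 10 letters were taken from the Cxcl1 window, so that their match there follows from the choice. The wider kB consensus was found in 1480 windows, or 4.51%, and in 7 of the 9 windows of the 6 genes, which belonged to 5 genes. In the first Nfkb2 window GGGAATTCCC matched at −39 to −30, overlapping GGAATTCCCC at −38 to −29, and GGGGCTTTCC matched at −11 to −2. The first Tnfaip3 window matched at −125 to −116 and at −12 to −3. The Icam1 window held no match to this consensus. A match describes the letters only.

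**Figure D1:**
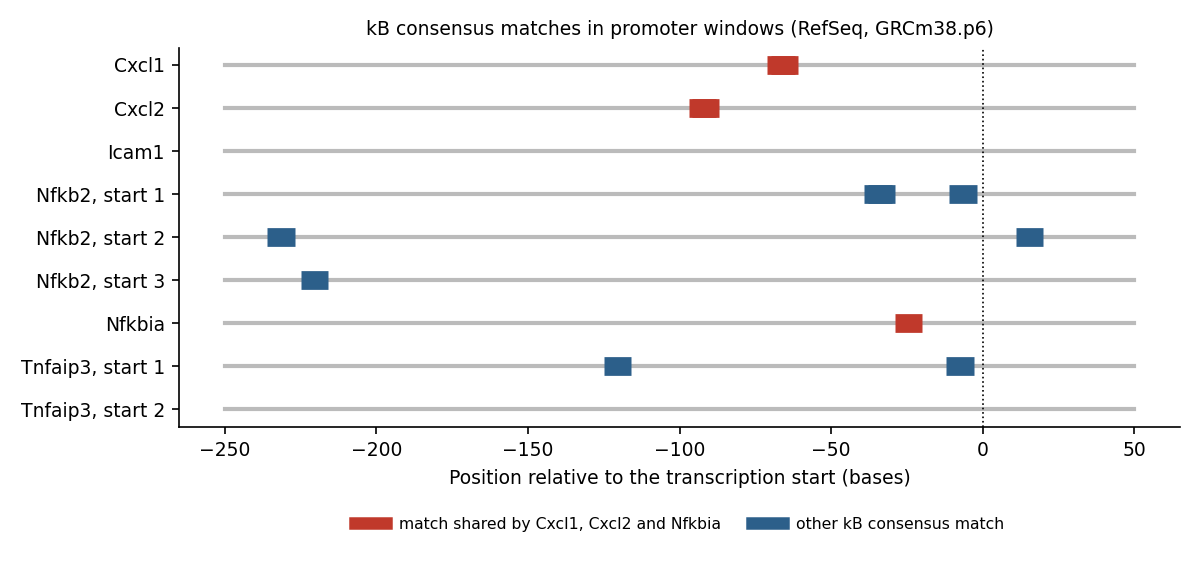
Matches to the kB consensus in the 9 promoter windows of 6 NF-kB genes, drawn by distance in bases from the transcription start (dotted line at 0, each grey line one window of 300 bases). Red blocks are the match shared by Cxcl1, Cxcl2 and Nfkbia and blue blocks are other matches, overlapping matches being joined; Icam1 and the second Tnfaip3 window have none.

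Values are log2 RMA values, 1 per probe set and array, and a gene is described by its brightest probe set on average over the 12 arrays. A gene was tested when that set exceeded 5 (log2) on 3 or more arrays; 15237 of 18193 genes passed, among them 7 of the 8 genes described here and 13 of their 16 probe sets. Cxcl2, a neutrophil-attracting chemokine gene, did not pass: its 1 probe set lay between 3.26 and 3.58 on all 12 arrays and was not tested. RMA equalises the arrays and can compress low signals, so that differences near the lower end may be understated. How far this holds for the genes here was not tested. Arrays of a group correlated with r between 0.9912 and 0.9959, and log2 differences between 2 groups had a median standard error (SE) of 0.12, a precision limited by the number of arrays. KO high-fat array 3 stood apart: it lay at the end of the first principal component, at 26.2 where the other arrays lay between −21.1 and 15.7, and had the lowest sums of the β-cell, delta cell and ductal markers (log2 16.33, 14.46 and 14.00). Without it the averaged call of Cxcl1 described next held and that of Nfkb2 was lost (adjusted p = 0.0752). Sgpp2 itself was lower on every KO array, at most 11.17, than on any WT array, at least 11.46, with means of 11.07 and 11.53 (exact two-sided permutation p = 0.00216, 6 arrays per genotype; adjusted p = 0.00327, and between 0.00058 and 0.0131 over the alternatives), and where its probe set lies relative to the deletion is not given in the sources used.

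Between the genotypes, Cxcl1 was higher in KO on normal food, and Cxcl1 and Nfkb2 were higher in KO when both diets were averaged, each by its brightest probe set only. The other tested set of Cxcl1 differed by −0.04 on normal food and 0.07 averaged (limma adjusted p = 0.905 and 0.732). That of Nfkb2 differed by −0.09 averaged (0.848). The other 5 tested genes (Relb, Nfkbia, Tnfaip3, Icam1 and Ccl2) did not pass the test in any comparison. On normal food 1 of the 7 genes passed at an adjusted p under 0.05, where 0.84% of all genes tested did and 0.479% did so upward. On high-fat food 0 of 7 passed (limma; 1 of 7 at an unadjusted p under 0.05), against 0.0263% of all genes. Averaged over the diets 2 of 7 passed, both upward, against 6.32% of all genes and 3.3% upward. Arrays of KO and WT did not overlap for 4 of the 7 genes on normal food, 2 higher and 2 lower, where 34.3% of all genes were apart, 12% higher and 22.2% lower; on high-fat food none of the 7 was apart, against 14.8% of all genes. The median log2 difference of the 7 genes was 0.097 on normal food, 0.018 on high-fat food and 0.077 averaged, beside −0.054, −0.029 and −0.041 over all genes tested. With each array centred on its median, the median of all genes on normal food was 0.052, so that how many genes of a list have a higher or a lower mean depends on the scaling.

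**Figure D2:**
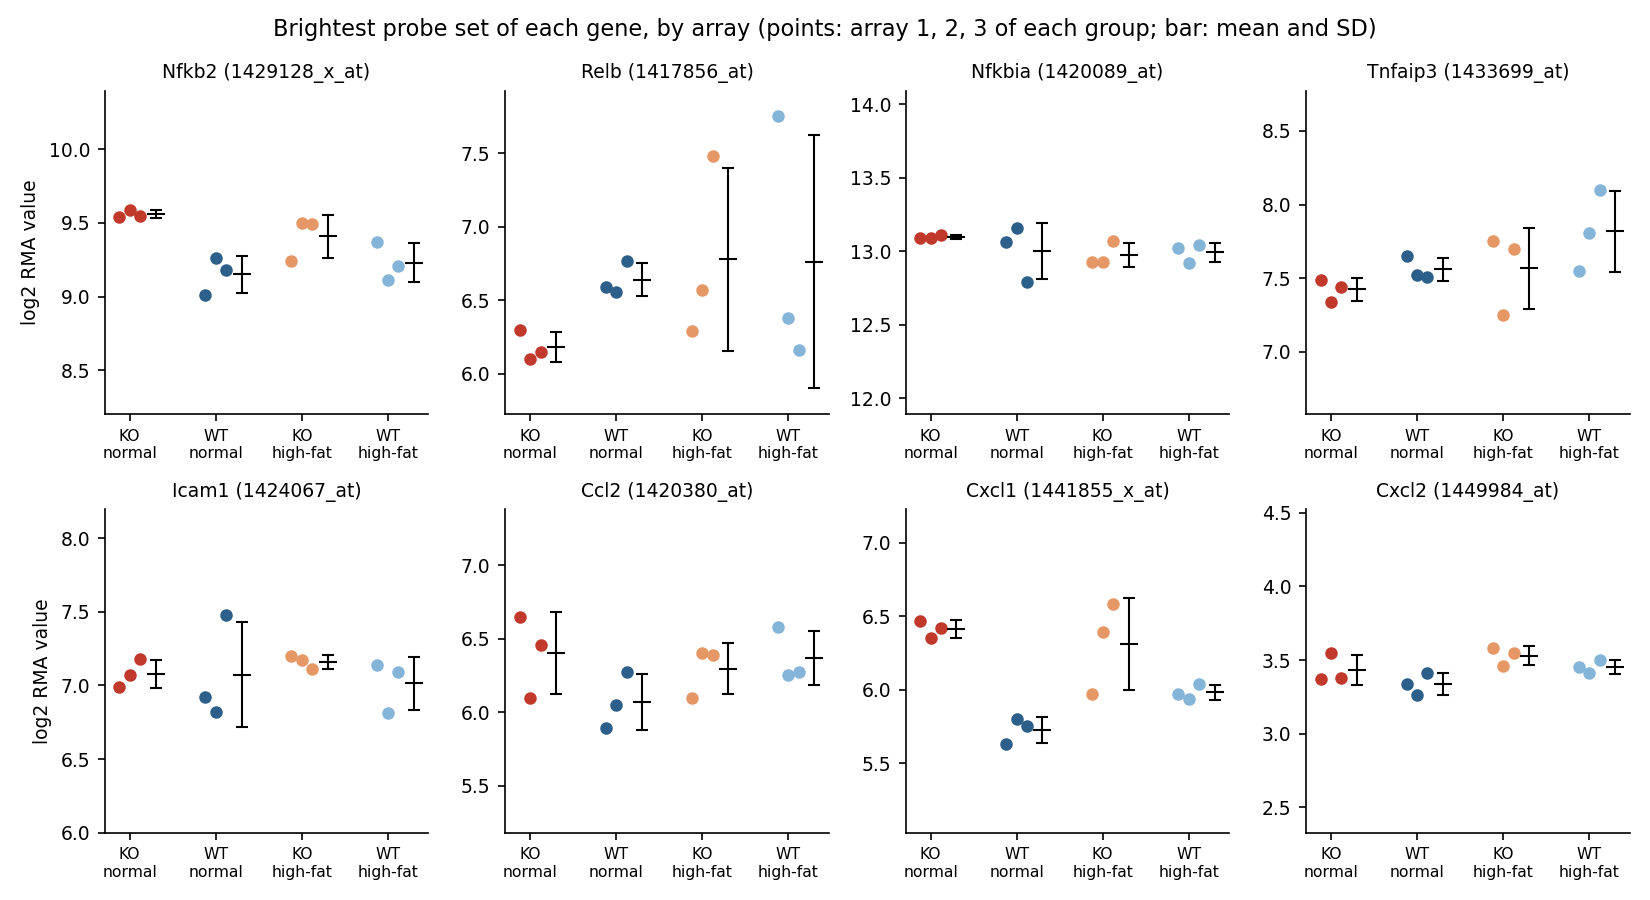
Log2 RMA value (vertical axis) of the brightest probe set of 8 NF-kB genes on each array, by group (KO normal, WT normal, KO high-fat, WT high-fat); points are arrays 1 to 3 of a group and bars the mean and SD (n = 3). The vertical axes differ in position but span the same range; Cxcl1 on normal food is between 6.35 and 6.47 in KO and between 5.63 and 5.80 in WT, while Cxcl2 stays below 5 throughout.

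Nfkb2 (chr19:46300994-46312400, GRCm38.p6) encodes the precursor of the non-canonical subunit. Its brighter probe set, 1429128_x_at, read 9.54, 9.59 and 9.55 on the KO normal arrays, against 9.01, 9.26 and 9.18 on the WT normal arrays. It read 9.24, 9.50 and 9.49 on the KO high-fat arrays, against 9.37, 9.11 and 9.21 on the WT high-fat arrays. The genotypes were apart on normal food and overlapped on high-fat food, where KO array 1 lay below WT array 1. Averaged over the diets Nfkb2 rose in KO by 0.30 on the log2 scale (SE 0.07, 1.23-fold, 95% interval 0.14 to 0.45, adjusted p = 0.0335; exact two-sided permutation p = 0.01 within diets, the smallest possible being 0.005). On normal food KO exceeded WT by 0.42 (SE 0.10, adjusted p = 0.074), and on high-fat food by 0.18 (adjusted p = 0.438). The averaged call was lost with the replicate number as a block (adjusted p = 0.0619), with same-numbered KO arrays as a random block (0.0635), and in 8 of 12 fits that left out 1 array: any KO normal array, WT normal array 1 or 3, KO high-fat array 2 or 3, or WT high-fat array 3 (0.0559 to 0.0883); over all alternatives the adjusted p ranged from 0.0197 to 0.848.

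The second Nfkb2 probe set, 1425902_a_at, did not follow the first. It read 6.24, 6.40 and 6.78 on the KO normal arrays, against 6.44, 6.33 and 6.92 on the WT normal arrays, and the groups overlapped. On high-fat food it read 6.11, 6.98 and 7.03 in KO, against 7.72, 6.28 and 6.35 in WT, so that WT array 1 was the highest of all 12. Its averaged difference between KO and WT was −0.09 (adjusted p = 0.848). The suffix x marks sets on this platform in which some probes can also match other sequences, and the suffix a marks sets that read several transcripts of a gene; what the first set reads besides Nfkb2 was not tested.

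**Figure D3:**
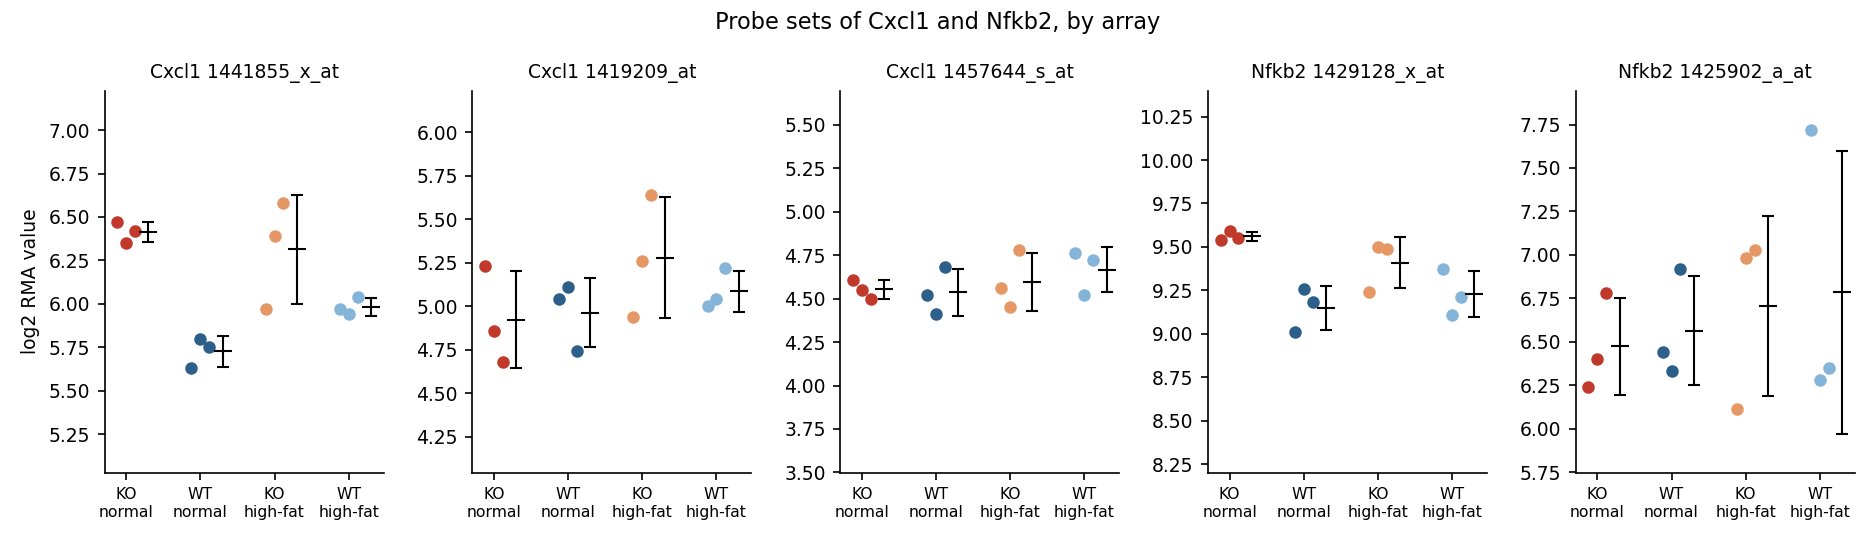
Log2 RMA value (vertical axis) of the 3 probe sets of Cxcl1 and the 2 of Nfkb2 on each array, by group; points are arrays and bars the mean and SD (n = 3). The set 1441855_x_at of Cxcl1 and the set 1429128_x_at of Nfkb2 separate KO from WT on normal food, and the other sets do not.

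Relb (chr7:19606217-19629438) encodes the partner of the processed Nfkb2 product. Its 1 probe set read 6.30, 6.10 and 6.15 on the KO normal arrays, against 6.59, 6.56 and 6.77 on the WT normal arrays. It read 6.29, 6.57 and 7.48 on the KO high-fat arrays, against 7.75, 6.38 and 6.16 on the WT high-fat arrays. Every KO value on normal food was below every WT value, and on high-fat food 1 array of each genotype stood well above the others of its group. The difference was −0.46 on normal food (SE 0.38, 95% interval −1.28 to 0.37, adjusted p = 0.481) and 0.02 on high-fat food (adjusted p = 0.987), beside a median SE of 0.12 over all genes, the spread being pooled over the groups. The averaged difference was −0.22 (adjusted p = 0.608), and without WT high-fat array 1 it was 0.03; on high-fat food the difference was −0.33 without KO array 3 and 0.51 without WT array 1.

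The arrays with high Relb were also high in the second Nfkb2 probe set. WT high-fat array 1 had 7.75 for Relb and 7.72 for 1425902_a_at, and KO high-fat array 3 had 7.48 and 7.03. Close to the 7.03 were KO high-fat array 2 (6.98) and WT normal array 3 (6.92), where Relb read 6.57 and 6.77. KO high-fat array 3 also had the highest summed level of the neutrophil markers S100a8 and S100a9 (log2 9.56 over a range of 6.52 to 9.56), and WT high-fat array 1 had 8.02; the neutrophil genes Csf3r and Mpo were below the filter. The neutrophil sum of WT high-fat array 1 was exceeded on WT normal array 3 (9.04) and on KO normal arrays 2 and 3 (8.96 and 8.98). Relb read 6.77, 6.10 and 6.15 on those arrays. KO high-fat array 3 had the lowest summed levels of the macrophage markers (12.98) and of the B cell markers (7.72). The part of these cells in the Relb values was not tested. Among the listed pathway genes Birc3, an inhibitor of apoptosis and NF-kB target, was named here after its values had been seen. It read 10.34 on KO high-fat array 3 and 10.00 on WT high-fat array 1, its highest values, within 9.46 to 10.34 over the 12 arrays. The next value was 9.93, on WT normal array 3 and KO high-fat array 2.

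**Figure D4:**
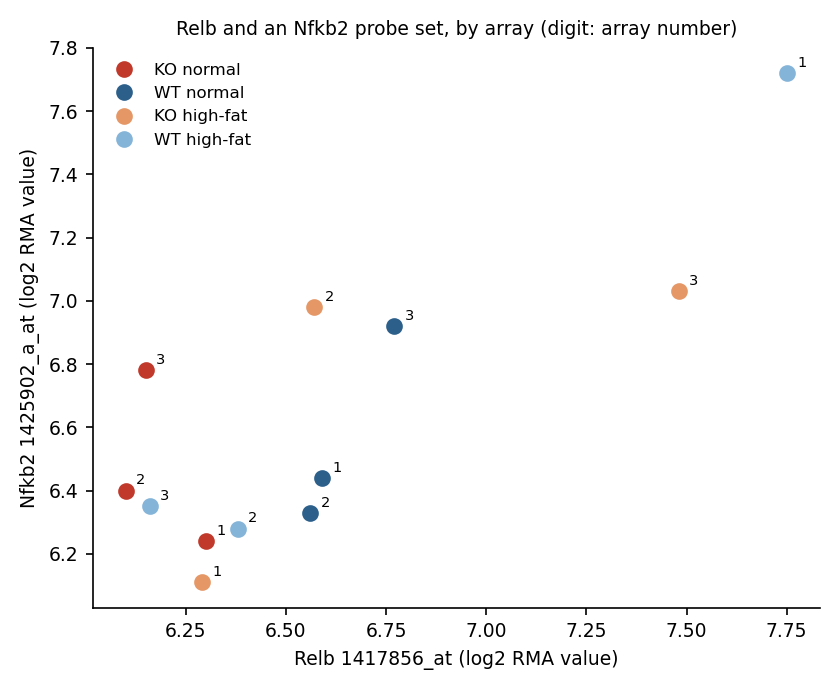
Log2 RMA value of Relb (horizontal axis) against that of the Nfkb2 probe set 1425902_a_at (vertical axis) on the 12 arrays, coloured by group, with the array number beside each point. WT high-fat array 1 and KO high-fat array 3 stand apart on the right, and the other 10 arrays have Relb values of 6.77 or less.

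Nfkbia (chr12:55489409-55492647) encodes the inhibitor that holds canonical dimers in the cytoplasm and had the narrowest range of the 7 genes over the 12 arrays, 0.37 on the log2 scale. Its brightest probe set read 13.09, 13.09 and 13.11 on the KO normal arrays, against 13.06, 13.16 and 12.79 on the WT normal arrays. It read 12.93, 12.93 and 13.07 on the KO high-fat arrays, against 13.02, 12.92 and 13.04 on the WT high-fat arrays. The genotypes overlapped on both diets. The difference was 0.10 on normal food (95% interval −0.11 to 0.30, adjusted p = 0.551) and −0.02 on high-fat food (−0.22 to 0.19, adjusted p = 0.948). Nfkbia has 5 probe sets, and the other 4 differed by −0.16 to 0.14 on normal food and by −0.24 to 0.05 on high-fat food, none passing.

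Tnfaip3 (chr10:19000910-19015410) encodes A20, the ubiquitin-editing enzyme that ends receptor signalling to NF-kB. It read 7.49, 7.34 and 7.44 on the KO normal arrays, against 7.65, 7.52 and 7.51 on the WT normal arrays. It read 7.75, 7.25 and 7.70 on the KO high-fat arrays, against 7.55, 7.81 and 8.10 on the WT high-fat arrays. The KO values lay just below the WT values on normal food and overlapped them on high-fat food. The difference was −0.14 (adjusted p = 0.603) on normal food and −0.25 (adjusted p = 0.481) on high-fat food, and −0.19 averaged (95% interval −0.43 to 0.04, adjusted p = 0.25). The other Tnfaip3 probe set lay between 3.23 and 3.76, below the filter.

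Among the targets, Cxcl1 (chr5:90891245-90893121) encodes a neutrophil-attracting chemokine that acts on the receptor encoded by Cxcr2. Its brightest probe set, 1441855_x_at, read 6.47, 6.35 and 6.42 on the KO normal arrays, against 5.63, 5.80 and 5.75 on the WT normal arrays. It read 5.97, 6.39 and 6.58 on the KO high-fat arrays, against 5.97, 5.94 and 6.04 on the WT high-fat arrays. The genotypes were clearly apart on normal food, and on high-fat food KO arrays 2 and 3 were above all WT arrays while KO array 1 was among them. Cxcl1 rose in KO on normal food by 0.69 on the log2 scale (SE 0.13, 1.61-fold, 95% interval 0.40 to 0.97, adjusted p = 0.0444). On high-fat food the difference was 0.33 (SE 0.13, 95% interval 0.05 to 0.62, adjusted p = 0.313). Averaged over the diets Cxcl1 rose by 0.51 (SE 0.09, 1.42-fold, adjusted p = 0.0137; exact two-sided permutation p = 0.01 within diets). The interaction of genotype and diet was −0.35 (95% interval −0.75 to 0.05, adjusted p = 0.988), so that the size in the 2 diets was not shown to differ.

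The call of Cxcl1 on normal food lay close to the threshold. It held without KO high-fat array 1 or 3 or WT high-fat array 2 and was lost without any other single array (adjusted p = 0.053 to 0.185), with the replicate number as a block (0.0674) and with only the 6 arrays compared (0.0641), while the difference stayed between 0.64 and 0.72 when 1 array was left out. The averaged call held in all 12 of those fits (adjusted p = 0.00464 to 0.0426), with the block (0.0232) and with same-numbered KO arrays as a random block (0.0405). Over all alternatives the adjusted p ranged from 0.0302 to 0.905 on normal food and from 0.00464 to 0.732 averaged, the highest values being those of the other probe set. In order of mean, Cxcl1 was highest in KO on normal food, then KO on high-fat food, WT on high-fat food and WT on normal food. None of the neighbours in that order passed the test (adjusted p = 0.944, 0.313 and 0.508), although the interval of KO against WT on high-fat food did not include 0 and the WT arrays of the diets did not overlap. Nfkb2 had the same order, and none of its neighbours passed (adjusted p = 0.821, 0.438 and 0.833), although the KO arrays of the diets did not overlap.

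The rise of Cxcl1 was seen in 1 of its 3 probe sets. The set 1419209_at, above 5 on 8 of the 12 arrays, read 5.23, 4.86 and 4.68 on the KO normal arrays, against 5.04, 5.11 and 4.74 on the WT normal arrays. On high-fat food it read 4.94, 5.26 and 5.64 in KO, against 5.0, 5.04 and 5.22 in WT. The groups overlapped on both diets, with differences of −0.04 (SE 0.18, 95% interval −0.44 to 0.35, adjusted p = 0.905) and 0.19 (adjusted p = 0.635). Its interval on normal food ended below the 0.40 at which that of 1441855_x_at began. The set 1457644_s_at lay between 4.41 and 4.78, below the filter on every array. With the mean of the probe sets of each gene, those below the filter included, Cxcl1 differed by 0.22 on normal food (limma adjusted p = 0.291) and by 0.19 averaged (0.174), and Nfkb2 by 0.11 averaged (0.685). Of the 13 probe sets tested, 1 passed on normal food, 0 on high-fat food (limma) and 2 averaged, beside 1.9%, 0.282% and 10.1% of all 28689 named probe sets above the filter; the probe sets that passed both carry the suffix x.

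Ccl2 (chr11:82035577-82037452) encodes a monocyte-attracting chemokine. It read 6.65, 6.10 and 6.46 on the KO normal arrays, against 5.89, 6.05 and 6.27 on the WT normal arrays. It read 6.10, 6.40 and 6.39 on the KO high-fat arrays, against 6.58, 6.25 and 6.27 on the WT high-fat arrays. The genotypes overlapped on both diets, and KO normal array 2 was below WT normal array 3. The difference was 0.33 on normal food (SE 0.16, 95% interval −0.01 to 0.68, adjusted p = 0.239) and −0.07 on high-fat food (adjusted p = 0.87).

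Icam1 (chr9:21015940-21028814) encodes an adhesion molecule by which leukocytes bind endothelium. It read 6.99, 7.07 and 7.18 on the KO normal arrays, against 6.92, 6.82 and 7.48 on the WT normal arrays. It read 7.20, 7.17 and 7.11 on the KO high-fat arrays, against 7.14, 6.81 and 7.09 on the WT high-fat arrays. The values overlapped throughout. The difference was 0.01 on normal food (95% interval −0.33 to 0.35, adjusted p = 0.976) and 0.14 on high-fat food (−0.19 to 0.48, adjusted p = 0.687).

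**Figure D5:**
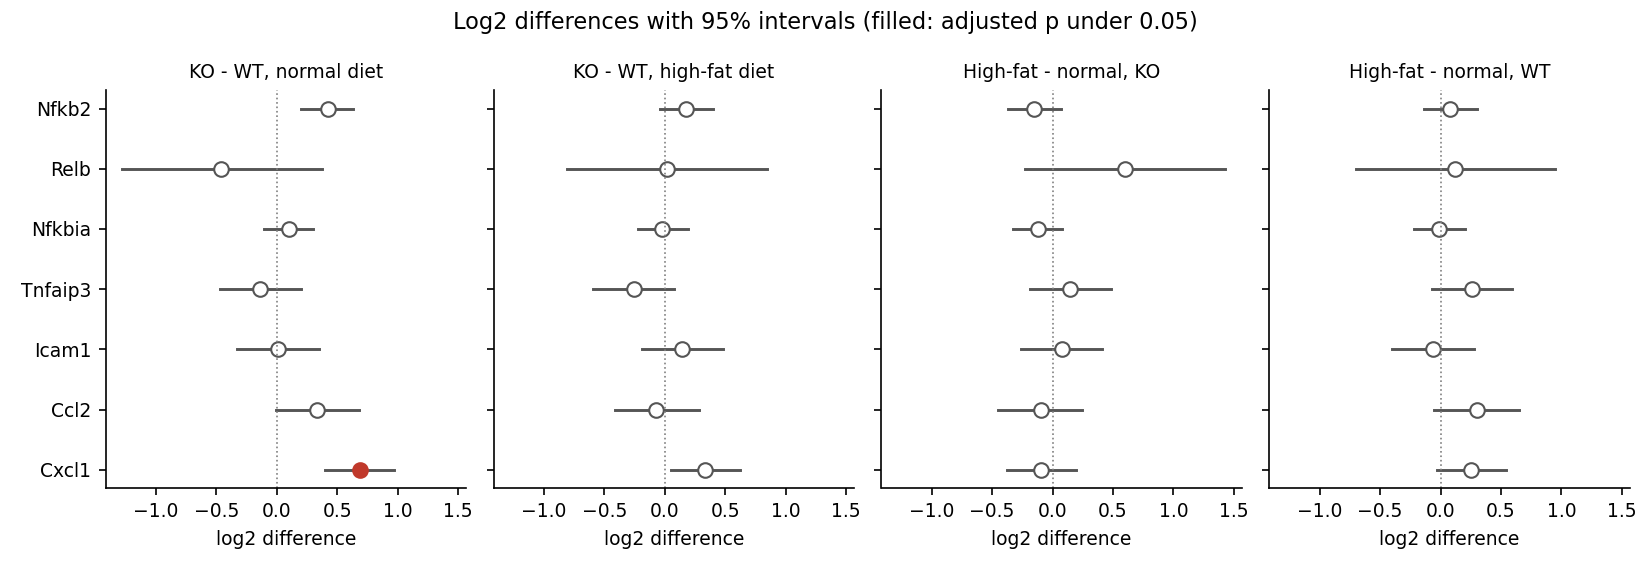
Log2 difference (horizontal axis) with its 95% interval for the 7 tested NF-kB genes in 4 comparisons: KO minus WT on normal and on high-fat food, and high-fat minus normal food in KO and in WT. The filled point, Cxcl1 in KO against WT on normal food at 0.69, is the 1 value in these panels with an adjusted p under 0.05.

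High-fat food was compared with normal food within each genotype; these comparisons share their arrays with those of the genotypes. None of the 7 genes passed in limma in KO, where 0% of all genes did, in WT, where 0.0788% did, or averaged over the genotypes, where 0.197% did. At an unadjusted p under 0.05 there were 0 of the 7 in each of the 3, against 7.7%, 11.1% and 13.6% of all genes. The median difference of the 7 genes was −0.097 in KO and 0.125 in WT, beside −0.006 and −0.017 over all genes. In KO the arrays of the diets were apart for Nfkb2 (−0.15, adjusted p = 0.821) and Nfkbia (−0.12, adjusted p = 0.856), both lower on high-fat food, where 13% of all genes were apart, 6.71% in that direction. In WT they were apart for Cxcl1 (0.25, adjusted p = 0.508), higher on high-fat food, where 15.8% of all genes were apart, 5.63% in that direction. Relb differed by 0.60 in KO (95% interval −0.23 to 1.43, adjusted p = 0.797) and by 0.12 in WT (adjusted p = 0.953). Tnfaip3 differed by 0.14 in KO and by 0.26 in WT (adjusted p = 0.581), and Ccl2 by −0.10 in KO and 0.30 in WT (adjusted p = 0.535). No interaction of genotype and diet passed for any of the 7 genes, as for 0% of all genes (limma; at an unadjusted p under 0.05, 0 of the 7 and 4.97% of all genes).

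Other genes of the pathway were taken from lists of 80 genes; 74 were named on the array and 64 were tested. On normal food 0 of the 64 passed in limma, and 18 had an unadjusted p under 0.05, where 22.1% of all genes did. Their means were higher in KO for 21 and lower for 43, where 40.2% of all genes were higher, and the median was −0.062. On high-fat food 0 passed in limma, 8 had an unadjusted p under 0.05 (13.4% of all genes), 25 were higher (43.3% of all genes) and the median was −0.040. Averaged over the diets 3 of the 64 passed, 1 upward and 2 downward, where 6.32% of all genes did, 15 had an unadjusted p under 0.05 (28.6% of all genes), 23 were higher (40.5% of all genes) and the median was −0.051; the medians of all genes tested were −0.054, −0.029 and −0.041. The Rel subunit gene was below the filter, and Rela, which encodes the main canonical subunit and is given for that role after its values had been seen, lay between 9.22 and 9.77 and differed by −0.21 on normal food (adjusted p = 0.371) and −0.07 on high-fat food (adjusted p = 0.832).

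Of the 64 pathway genes, Tax1bp1, Tnip1 and Cx3cl1 passed between KO and WT averaged over the diets, where 6.32% of all genes did. Tax1bp1, an adaptor of A20, rose by 0.27 (adjusted p = 0.0444): it read 12.24, 12.32 and 12.34 on the KO normal arrays, against 11.87, 12.04 and 12.04 on the WT normal arrays. Tnip1, an A20-binding inhibitor of NF-kB, fell by 0.37 (adjusted p = 0.0427): it read 9.87, 9.98 and 9.97 on the KO normal arrays, against 10.40, 10.27 and 10.45 on the WT normal arrays. Cx3cl1, which encodes the membrane-bound chemokine fractalkine, fell by 0.32 (adjusted p = 0.0487): it read 7.38, 7.24 and 7.24 on the KO normal arrays, against 7.92, 7.79 and 7.61 on the WT normal arrays. For all 3 genes the genotypes were apart on normal food, as they were for 34.3% of all genes, and overlapped on high-fat food. Tax1bp1 read 12.14, 12.10 and 12.42 on the KO high-fat arrays, against 11.89, 12.12 and 11.98 on the WT high-fat arrays. Tnip1 read 10.08, 10.17 and 10.04 on the KO high-fat arrays, against 10.59, 10.04 and 10.60 on the WT high-fat arrays. Cx3cl1 read 7.42, 7.39 and 7.06 on the KO high-fat arrays, against 7.61, 7.31 and 7.41 on the WT high-fat arrays. None of these high-fat differences passed (adjusted p = 0.366, 0.359 and 0.578). The calls were lost in 10 (Tax1bp1) and 11 (Tnip1 and Cx3cl1) of the 12 fits that left out 1 array, among them that without WT normal array 1 (adjusted p = 0.113, 0.103 and 0.121 for Tax1bp1, Tnip1 and Cx3cl1), and with same-numbered KO arrays as a random block (0.0794, 0.0771 and 0.0826). Over all alternatives Tax1bp1 had adjusted p between 0.019 and 0.113, Tnip1 between 0.00264 and 0.103, and Cx3cl1 between 0.0282 and 0.519. With the probe sets of each gene averaged the difference of Cx3cl1 was −0.07 (adjusted p = 0.519) and that of Tax1bp1 0.19 (0.0937). After cyclic loess all 3 calls were lost (0.0511 for Tax1bp1, 0.0632 for Tnip1 and 0.0777 for Cx3cl1). With arrays centred on their median those of Tnip1 (0.0817) and Cx3cl1 (0.0844) were lost. With no filter those of Tax1bp1 (0.0508) and Cx3cl1 (0.0548) were lost. The replicate number as a block lost those of Tax1bp1 (0.0545) and Tnip1 (0.0668).

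Of the 12 further subunit, inhibitor and kinase genes, 9 had lower means in KO on normal food and none passed. Over all genes 40.2% had higher means there and 0.84% passed, and counts of higher and lower means depend on the scaling. Nfkbiz, which encodes a nuclear coactivator of NF-kB, differed by 0.43 (adjusted p = 0.0939), and the inhibitor genes Nfkbie and Nfkbid by −0.45 (0.110) and −0.50 (0.165). Of the 17 receptors and adaptors 14 had lower means, with Tlr2, a receptor for bacterial lipoproteins, at −0.56 (adjusted p = 0.078) and Il1rap, the shared subunit of interleukin-1 receptors, at −0.32 (0.134). Of the 21 further targets 11 had higher and 10 lower means; the growth factor Csf1 differed by −0.47 (adjusted p = 0.100) and Ier3, an early response gene, by −0.46 (0.0959). Cxcl10, a T cell-attracting chemokine, differed by 1.46 on normal and 1.69 on high-fat food (SE 0.75, adjusted p = 0.272 and 0.369), with values of 9.20, 7.83 and 7.40 on the KO normal arrays, against 5.95, 7.55 and 6.55 on the WT normal arrays.

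Receptors of these chemokines and the integrin partners of Icam1 were measured in part. Cxcr2, the receptor of the Cxcl1 and Cxcl2 products, was below the filter, as was the integrin gene Itgam. Ccr2, the receptor of the Ccl2 product, read 6.86, 6.30 and 6.07 on the KO high-fat arrays, against 6.00, 5.70 and 5.53 on the WT high-fat arrays. The genotypes were apart there, as they were for 14.8% of all genes, with a difference of 0.67 (limma adjusted p = 0.289). On normal food the difference was −0.04 (adjusted p = 0.937). Itgal and Itgb2, which encode the chains of an Icam1-binding integrin of leukocytes, differed by −0.17 (adjusted p = 0.83) and 0.23 (adjusted p = 0.659) on normal food.

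For the diet averaged over the genotypes, 1 of the 64 pathway genes passed, where 0.197% of all genes did: Irak3, which encodes an inhibitor of Toll-like receptor signalling. It read 8.31, 8.36 and 8.43 on the KO high-fat arrays, against 8.10, 7.76 and 7.84 on the KO normal arrays. It read 8.54, 8.40 and 8.61 on the WT high-fat arrays, against 7.87, 8.18 and 7.81 on the WT normal arrays. The diets were apart in both genotypes, as they were for 13% of all genes in KO and 15.8% in WT, and averaged over them Irak3 rose by 0.52 on high-fat food (SE 0.08, adjusted p = 0.0398). The call was lost with the probe sets of the gene averaged (0.32, adjusted p = 0.0972), with the replicate number as a block (0.105) and in 10 of 12 fits without 1 array, the highest adjusted p being 0.109 without KO high-fat array 3; over all alternatives it ranged from 0.0355 to 0.109.

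Marker genes of other cell types differed in mean between the genotypes, mostly without passing the test. Of 11 tested acinar markers all 11 had higher means in KO on normal food, none passing (limma; 6 at an unadjusted p under 0.05), where 40.2% of all genes were higher and 22.1% had such a p, and their summed level was 17.23 to 17.44 on the KO arrays against 17.05 to 17.22 on the WT arrays (log2); on high-fat food 8 of the 11 were higher (43.3% of all genes) and 0 had an unadjusted p under 0.05 (limma), with sums of 17.15 to 17.21 against 16.95 to 17.24. Of 10 endothelial markers all 10 had lower means in KO on normal food, with sums of 13.65 to 13.68 against 13.82 to 13.92. On high-fat food 8 of the 10 had lower means, where 43.3% of all genes were higher, with sums of 13.66 to 13.79 against 13.80 to 13.89. Pecam1 and Kdr fell averaged over the diets, by 0.50 and 0.23 on the log2 scale (adjusted p = 0.0318 and 0.0448), 2 of 10 where 6.32% of all genes passed. Sums of 11 macrophage markers overlapped, 13.28 to 13.40 in KO against 13.23 to 13.53 in WT on normal food and 12.98 to 13.48 against 13.21 to 13.60 on high-fat food. By gene, 6 of these 11 had lower means in KO on normal food, 10 on high-fat food and 9 averaged. The means of 40.2%, 43.3% and 40.5% of all genes were higher. None of the 11 passed (limma), and 2, 0 and 3 had an unadjusted p under 0.05, against 22.1%, 13.4% and 28.6% of all genes. Sums of 7 T and NK cell markers overlapped too, 8.40 to 8.66 against 8.34 to 8.47 on normal food. The fat cell genes Adipoq and Lep were below the filter, while Fabp4, the 1 tested gene of that list, had a mean log2 value of 11.53. Sums of 6 β-cell markers were 16.40 to 16.46 in KO against 16.49 to 16.55 in WT on normal food. Those of 3 delta cell markers were 14.58 to 14.62 against 14.64 to 14.77. Both overlapped on high-fat food. Of 10 fibroblast and stellate markers 1 passed averaged over the diets, upward, where 6.32% of all genes passed. In whole-tissue RNA fewer cells of a type and less RNA per cell cannot be told apart, and the part of any of these cells in the Cxcl1 and Nfkb2 values was not tested.

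By likeness over the 12 arrays (Pearson r among 15237 genes, given as a description of arrays that share groups), the gene most like Nfkb2 was Cep85 (r = 0.932), followed by Tmed11 (0.903) and Cxcl1 (0.901). The genes most like Cxcl1 were Zfp955b (r = 0.944), Fndc3a (0.939) and Usp14 (0.929). Relb was most like Ifngr2 (0.927), Kdm8 and Serpinb9d. Nfkbia was most like Errfi1 (0.937), Trib1 (0.878) and Cebpd (0.864). Tnfaip3 was most like Pcdhb14 (0.928), Icam1 most like Lrrc49 (0.84) and Ccl2 most like Krt24 (0.854).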

How the data were processed

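Total RNA, 4 µg per sample, was labelled with biotin for 12 arrays, per the labels' protocols. The deposited values are log2 RMA summaries; the submitters' processing notes name RMA and Partek 6.6, without order or options. The log2 scale was read from the values (2.6 to 15.3, array medians 7.0 to 7.13), and the share of probe sets above 5 was 75.9% to 77.3%. Probe sets with 1 gene symbol in the platform annotation were used (34945, of which 34741 matched the reference table GRCm38.p6 by Entrez identifier and 0 needed a new symbol); 64 controls, 932 sets with several symbols and 9160 not listed there carry no gene here. In limma 3.58.1 (R 4.3.3) each group had its own coefficient in a fit of the 12 arrays (8 residual degrees of freedom, 11.08 moderated); tests were two-sided, and every adjusted p is from limma, by Benjamini-Hochberg over all genes tested within a comparison, or over the 28689 named probe sets above the filter for a set other than the brightest. The script was tested on simulated data.

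The genes and lists were chosen with earlier results of these data known. From each pathway list the text names up to 4 genes per comparison, those past the threshold first and then those with the smallest p. Promoter windows are from RefSeq, and matplotlib 3.10.9 (Python 3.11.15) drew the figures. KO arrays that share a number deviated alike from their group means on both diets (r = 0.29, 0.38 and 0.14, each over 0.1), the basis of the KO pairs; what a number marks is not stated. Numbers did not pair the samples in the other comparisons.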

Additional observations from a re-analysis of the deposited data

Results flagged for a closer look

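Il1b, which encodes the cytokine interleukin-1β and is itself a target of NF-kB, was lower on every KO array than on any WT array on normal food and higher on high-fat food, without overlap, as 34.3% and 14.8% of all genes were apart on these diets; none of its differences passed. It read 7.02, 7.41 and 7.31 on the KO normal arrays, against 7.91, 7.43 and 7.87 on the WT normal arrays. It read 7.72, 7.60 and 7.65 on the KO high-fat arrays, against 7.40, 7.33 and 7.28 on the WT high-fat arrays. The difference between KO and WT was −0.49 on normal food (limma adjusted p = 0.0939) and 0.32 on high-fat food (0.351). High-fat against normal food gave 0.41 in KO and −0.40 in WT (limma adjusted p = 0.503 and 0.287), also without overlap, as 13% and 15.8% of all genes were apart. The interaction of genotype and diet was 0.81 (SE 0.19, unadjusted p = 0.0013) and did not pass over all genes (adjusted p = 0.836). Il1b was picked because the genotypes differed in opposite directions on the diets. Its unadjusted p for the interaction therefore follows in part from that choice and cannot be read as a test.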

How the results depend on the processing

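The 7 tested genes in 7 comparisons gave 49 values, of which 3 passed, and each was recomputed under 20 to 22 of 23 other settings, those that apply to it, 12 of which left out 1 array. On normal food the 1 gene that passed (Cxcl1) became 2 with arrays centred on their median, where Nfkb2 was added (0.52, adjusted p = 0.0423), and 0 with a gene's probe sets averaged, with a replicate block (paired by number), and with only the 6 arrays compared. Averaged over the diets the 2 genes became 0 with probe sets averaged, 1 with the replicate block and 1 with the KO pairs as a random block, a fit in which 352 of all genes passed against 963. Leaving out 1 array gave 0 to 1 genes on normal food, 1 to 2 averaged, and 0 in every other comparison. The replicate block changed no other call of the 7 genes. The cause of these changes was not tested.

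Of 441 values under settings other than leaving out an array, 18 changed sign, 2 of them of differences that had passed. With the other probe set, chosen as an alternative after the data had been seen, Cxcl1 differed by −0.04 between KO and WT on normal food, by 0.36 with the diet in KO and by 0.23 in the interaction. With the other probe set Nfkb2 differed between KO and WT by −0.09 on normal food, −0.08 on high-fat food and −0.09 averaged, by 0.23 with the diet in KO, by 0.23 with the diet averaged and by 0.01 in the interaction. The mean of the probe sets included sets below the filter, such as the second of Tnfaip3, at 3.53 in KO and 3.28 in WT on normal food. With this mean Tnfaip3 differed between KO and WT by 0.05 on normal food and Nfkbia by −0.02 averaged. The diet differences became 0.04 for Nfkb2 and 0.10 for Cxcl1 in KO, 0.06 for Nfkbia in WT, and 0.10 for Nfkb2 and 0.00 for Nfkbia averaged. With centred arrays Nfkbia differed by 0.03 between KO and WT on high-fat food and by 0.02 with the diet in WT.

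Of 588 values without 1 array, 32 changed sign, none of a difference that had passed; their ranges over the 12 fits follow. Between KO and WT on normal food Nfkbia lay between −0.01 and 0.18 and Icam1 between −0.12 and 0.21. Between KO and WT on high-fat food Relb lay between −0.33 and 0.51, Nfkbia between −0.06 and 0.01 and Ccl2 between −0.13 and 0.04. Averaged, Relb lay between −0.39 and 0.03 and Nfkbia between −0.01 and 0.08. With the diet in KO Ccl2 lay between −0.26 and 0.02 and Cxcl1 between −0.23 and 0.07; in WT Relb lay between −0.37 and 0.42, Nfkbia between −0.12 and 0.07 and Icam1 between −0.18 and 0.14; averaged, Nfkb2 lay between −0.07 and 0.01 and Icam1 between −0.05 and 0.11. The interaction lay between −0.25 and 0.04 for Tnfaip3 and between −0.07 and 0.26 for Icam1.

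Over all genes tested on normal food, 73 rose and 55 fell as deposited, 89 and 22 after cyclic loess and 294 and 43 after median centring; averaged, 503 and 460, 616 and 230, and 1070 and 174. Genes near the lower end of the scale, such as Cxcl2 and the dimmer Cxcl1 sets, are limited by signal over background.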
